A study of Mus musculus with 26 samples.

Results

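The genes described here encode the proteins of the cytoplasmic ribosome, measured by bulk RNA sequencing in E-A14, a Her2-expressing line of mouse mammary tumour cells with an activated rat Neu transgene. They were taken by name from the deposited table of counts. A gene was a member when its mouse symbol began with Rpl or Rps and a digit, or was Rplp0, Rplp1, Rplp2 or Rpsa. Symbols that contain -ps (274 pseudogenes) and the 10 Rps6k kinases were dropped, which left 92 of 47730 features. Of these, 77 encode standard subunits of the ribosome (46 of the large and 31 of the small subunit), 14 are paralogs or retrogenes, and Rps19bp1 encodes a binding partner of a ribosomal protein and not a subunit. Some ribosomal genes with other names, such as Fau and Rack1, lie outside the rule.

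E-A14 cells were placed in the fourth mammary fat pad of mice of the FVB/N strain, aged 6 to 8 weeks. The depleted mice received anti-CD4 and anti-CD8a antibodies and their tumours were taken on day 20. The control mice received rat IgG2a and IgG2b and their tumours were taken on day 47. Each antibody was given at 100 µg, 2 times a week, from 2 weeks before implantation. After dead cells and those with CD90, CD105 or CD45 were gated out, Her2-positive cells were sorted into EpCAM-negative and EpCAM-positive fractions. EpCAM is an epithelial adhesion protein, and its loss is one mark of a shift towards a mesenchymal state. The groups were depleted EpCAM-negative, depleted EpCAM-positive, control EpCAM-negative and control EpCAM-positive cells, with 6 libraries each, and E-A14 cells in culture, with 2 libraries. All cells come from 1 implanted line, and depletion cannot be told apart from the day of collection, because each treatment was collected on 1 day.

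A ribosome joins a small subunit, which reads the mRNA, to a large subunit, which forms peptide bonds. One copy of nearly every protein goes into each particle, and cells make the proteins in step. Mammalian mRNAs for these proteins begin with a run of pyrimidines, the 5′ terminal oligopyrimidine (TOP) tract, through which growth signals by way of mTORC1 and LARP1 set how strongly they are translated. Cancer cells that divide quickly usually make more ribosomes. Some subunits have paralogs that can take the parent's place, and most have many processed pseudogenes.

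RefSeq promoters (build GRCm38.p6) were at hand for 67 of the 92 genes, and 2 motifs are marked in the stretches below. CTTTCC is a pyrimidine run of the kind found at TOP starts, and CGGAAG is the core of the binding motif of ETS factors such as GABPA. The 80 bases below run from 60 before to 20 after the annotated start. They are first of 4 genes named in the results that all hold a match. Matches to either motif on either strand are in capitals.
Rpl4, chr9:64173327-64173406, plus strand: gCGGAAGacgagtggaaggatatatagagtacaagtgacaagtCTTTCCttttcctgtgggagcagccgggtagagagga
Rpl38, chr11:114668520-114668599, plus strand: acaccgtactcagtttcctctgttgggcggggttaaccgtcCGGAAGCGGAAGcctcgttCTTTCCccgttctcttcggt
Rps10, chr17:27635225-27635304, minus strand: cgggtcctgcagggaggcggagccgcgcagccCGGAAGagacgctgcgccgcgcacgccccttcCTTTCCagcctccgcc
Rpl26, chr11:68901506-68901585, plus strand: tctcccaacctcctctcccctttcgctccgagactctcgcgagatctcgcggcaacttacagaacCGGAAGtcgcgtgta
Among other genes read in the same window and not shown, Rpl15, Rps27l, Rpl36al and Rps19bp1 held a match, and Rps24 and Rpl22l1 held none. Rpl27, in the same window, and the paralog Rpl7l1, shown next to it, held neither motif.
Rpl27, chr11:101442185-101442264, plus strand: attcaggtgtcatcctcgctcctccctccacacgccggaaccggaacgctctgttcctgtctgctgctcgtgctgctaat
Rpl7l1, chr17:46782637-46782716, minus strand: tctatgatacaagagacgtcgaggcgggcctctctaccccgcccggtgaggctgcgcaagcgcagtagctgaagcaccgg

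In promoters of 300 bases, CGGAAG or its complement CTTCCG was found in 40 of 57 standard genes (70.2%), against 5075 of all 27025 genes (18.8%). It was in 39 of 69 genes of the mitochondrial ribosome (56.5%) and in 3 of 9 paralogs and retrogenes (33.3%). CTTTCC or its complement GGAAAG was in 29 of 57 standard genes (50.9%), against 29.3% of all genes, and in 6 of 9 paralogs and retrogenes (66.7%). AAGATGG or its complement CCATCTT, the core of the YY1 motif, was in 9 of 57 standard genes (15.8%), against 7.28% of all genes. Matches of different motifs overlapped in 1 standard gene. A gene with several listed starts was counted when any of its windows matched. A match describes the letters of the window and is not a measured binding site. Matches were counted anywhere in the window and on either strand, so a CTTTCC match need not lie at a TOP start.

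Library totals ran from 17559520 to 25601999 counts in depleted tumours, from 26895429 to 38740143 in control tumours, and were 27253363 and 35059744 in the cultures. Depth therefore did not overlap between the treatments. The levels below are CPM, counts scaled to TMM-adjusted library sizes, so they show a gene's part of a library's RNA and not RNA per cell. In bulk samples, fewer cells of a type and less RNA per cell cannot be told apart. A gene was said to have risen or fallen when edgeR's quasi-likelihood test gave it an adjusted p (Benjamini-Hochberg over all 16637 features tested) under 0.05. Values given as a number ± another with an adjusted p are log2 fold changes with their SE. Of the 92 genes, 85 passed the filter on low counts. The other 7 were Rpl3l, Rpl6l, Rpl10l, Rpl39l, Rps3a2, Rps4l and Rps12l1, all paralogs or retrogenes.

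The 92 genes held a small share of the assigned counts, and its group means stood in the order culture, depleted tumours, control tumours. This share also depends on how reads shared with pseudogenes were assigned, which the sources used here do not give. They took 0.526 ± 0.072% of counts in depleted EpCAM-negative cells and 0.563 ± 0.069% in depleted EpCAM-positive cells, against 0.367 ± 0.039% in control EpCAM-negative cells and 0.410 ± 0.053% in control EpCAM-positive cells (SD, n = 6 each). The cultures held 0.698% and 0.808%. The lowest depleted EpCAM-negative library had 0.428% and the highest control EpCAM-negative library 0.421%, so depleted and control libraries just missed each other. With the 20 highest other features left out of the totals they overlapped, at 0.477% in the lowest depleted and 0.494% in the highest control EpCAM-negative library. The lowest depleted EpCAM-positive library had 0.503% and the highest control EpCAM-positive library 0.467%. On the TMM scale, the 77 standard genes summed to 4661 ± 662 CPM in depleted EpCAM-negative cells and 5102 ± 556 CPM in depleted EpCAM-positive cells. The sums were 3664 ± 307 CPM in control EpCAM-negative cells, 3724 ± 461 CPM in control EpCAM-positive cells, and 5701 and 6434 CPM in the cultures. On this scale the EpCAM-negative groups overlapped, with 3680 CPM in the lowest depleted and 4101 CPM in the highest control library, and the EpCAM-positive groups did not (4622 and 4226 CPM). Counts were concentrated in few genes: Rpl4 held 12.8% of all the members' counts, Rpl8 7.53%, Rps3 6.90% and Rplp0 5.73%. These are shares of counts and are not corrected for transcript length.

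**Figure D1:**
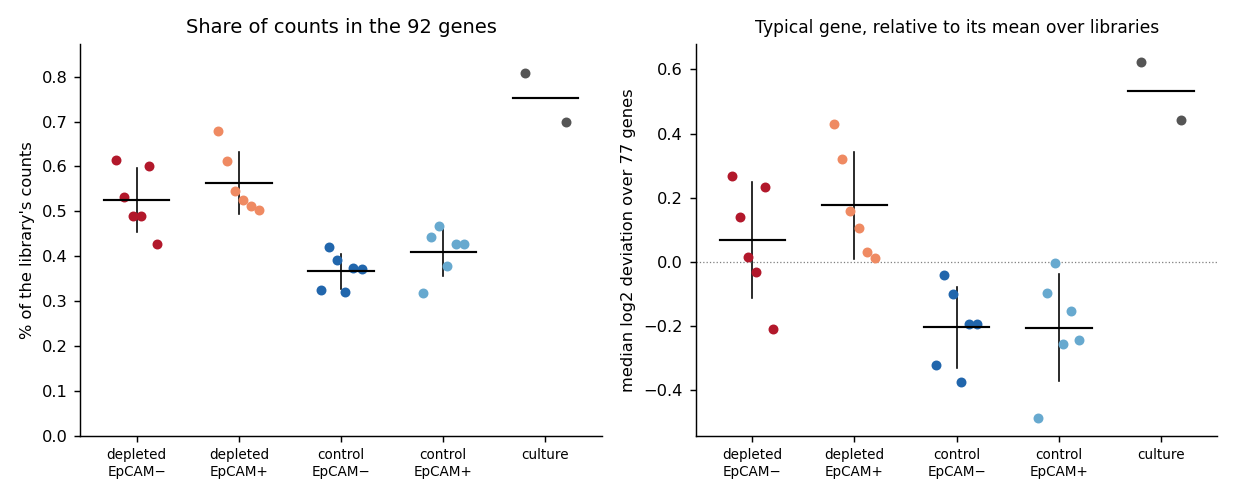
Left, percent of each library's counts that fell in the 92 genes; right, for each library, the median over the 77 standard genes of the log2 deviation from the gene's own mean over libraries. Each point is a library, horizontal bars are group means and vertical lines ± SD of the 6 libraries; in the left panel the cultures are highest, at 0.698% and 0.808%, and depleted libraries lie above control libraries of the same fraction, while in the right panel the depleted and control EpCAM-negative libraries overlap.

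How many counts a gene got went with how much of its sequence it shares. A 50-base window was called shared when the same bases stood in a transcript of another gene, pseudogenes included. The median member shared 56.1% of its windows, 54 members shared 50% or more, and 4 shared none. The 38 members under 50% held 81.7% of the members' counts. Their median was 39833 counts over the 26 libraries, against 4156 for the 54 others. Across the 77 standard genes, Spearman's rho between the shared percentage and counts per kilobase was -0.60, a description over genes of the same libraries. Rpl4 (16.5% shared, 430830 counts) and Rpl8 (7.86%, 253813 counts) were at one end. Rpl10 (92.1%, 4059 counts), Rpl5 (93.8%, 1134 counts) and Rps27 (98.6%, 1438 counts) were at the other. The sources used here do not give the authors' rule for reads that map to several places. Levels were compared between groups of libraries and not between genes, and a pseudogene's reads could be counted in or out of a member.

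**Figure D2:**
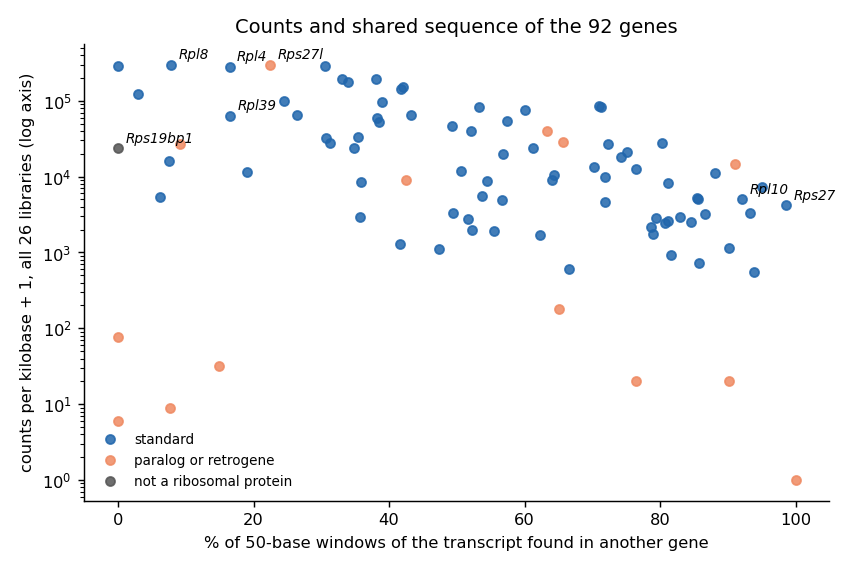
Counts per kilobase of transcript over all 26 libraries (log axis, 1 added) against the percent of a gene's 50-base windows that are also in another gene, for the 92 genes by kind. Genes with little shared sequence such as Rpl4 and Rpl8 lie high, and Rps27 and Rpl10, with over 90% shared, lie low.

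The clearest difference among tumours was between treatments. In EpCAM-positive cells, 44 of 85 tested genes rose in depleted against control tumours and 0 fell, where 17.6% of all tested features rose and 22.4% fell. Their median log2 fold change was 0.42 (from -0.10 to 0.71, positive in 78), against -0.02 over all features. In EpCAM-negative cells, 31 of 85 rose and 0 fell, where 21.9% of all features rose and 23.2% fell. The median was 0.30 (from -0.28 to 0.78, positive in 72), against 0.03 over all features. At an unadjusted p under 0.05, 0 fell in the EpCAM-positive fraction and 1 in the EpCAM-negative fraction, and DESeq2 also gave 0 fallen genes in either. Of the risen genes, 26 were called in both fractions, which is 59.1% of the 44 and 83.9% of the 31. The same overlap over all features was not counted.

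Both subunits took part. In EpCAM-positive cells, 22 of 46 large-subunit genes rose (median 0.38) and 21 of 31 small-subunit genes (median 0.49), with 1 of 7 tested paralogs. In EpCAM-negative cells, 14 of 46 large-subunit genes rose (median 0.25) and 15 of 31 small-subunit genes (median 0.35), again with 1 of 7 paralogs. Among genes with under 50% of windows shared, 24 of 34 rose in EpCAM-positive cells and 15 of 34 in EpCAM-negative cells. Among those with 50% or more, 20 of 51 and 16 of 51 did. The rise was thus counted among genes with mostly unshared sequence too.

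Rps20, a protein of the small subunit's head, rose in both fractions with no overlap of libraries. Its lowest, median and highest levels were 74.0, 98.1 and 108 CPM in depleted EpCAM-negative cells, against 47.4, 60.2 and 66.6 CPM in control EpCAM-negative cells (log2 fold change 0.72 ± 0.11 SE, adjusted p = 4.22e-06). In EpCAM-positive cells they were 98.3, 109 and 131 CPM in depleted tumours, against 52.2, 72.3 and 77.8 CPM in control tumours (0.70 ± 0.11, adjusted p = 7.03e-06). Every depleted library lay above every control library of its fraction.

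In the large subunit, Rpl32 ranged over 234, 268 and 340 CPM in depleted EpCAM-positive cells, against 126, 169 and 214 CPM in control EpCAM-positive cells (0.70 ± 0.13, adjusted p = 6.32e-05). The 2 groups did not overlap. In EpCAM-negative cells Rpl32 stood at 169, 228 and 284 CPM in depleted tumours, against 137, 162 and 198 CPM in control tumours, which overlapped (0.48 ± 0.12, adjusted p = 0.00254). Rpl4, the member with the most counts, had 696, 733 and 846 CPM in depleted EpCAM-positive cells, against 490, 561 and 577 CPM in control EpCAM-positive cells (0.46 ± 0.07, adjusted p = 5.97e-06). Its EpCAM-negative levels were 576, 673 and 742 CPM in depleted tumours, against 443, 469 and 507 CPM in control tumours (0.50 ± 0.07, adjusted p = 1.5e-06). Rpl4 was, like Rps20, higher in every depleted library of both fractions. Rps10 rose in EpCAM-positive cells, with 25.6, 28.8 and 41.4 CPM in depleted tumours, against 15.5, 20.6 and 26.7 CPM in control tumours (0.60 ± 0.14, adjusted p = 0.000997). Its EpCAM-negative change was 0.34 ± 0.14 (adjusted p = 0.0454).

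Depleted and control libraries did not overlap, with depleted higher, for 19 of 85 genes in EpCAM-positive cells, where 9.21% of all features did the same. In EpCAM-negative cells 5 of 85 did (among them Rpl4, Rps18, Rps19bp1 and Rps20), where the background was 10.4%, so that count was below the background. The 19 genes held 11 of the small subunit, among them Rps3, Rps19 and Rpsa, and 8 of the large subunit, among them Rpl13, Rpl41, Rpl7 and Rplp0. No gene separated in the other direction, where 12.5% of all features did so in EpCAM-positive cells and 14.5% in EpCAM-negative cells. The highest fold change in EpCAM-negative cells was that of Rps18, at 0.78 ± 0.23 (adjusted p = 0.0062), from a gene with 2.61, 3.39 and 3.94 CPM in depleted tumours, against 1.38, 2.01 and 2.40 CPM in control tumours.

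**Figure D3:**
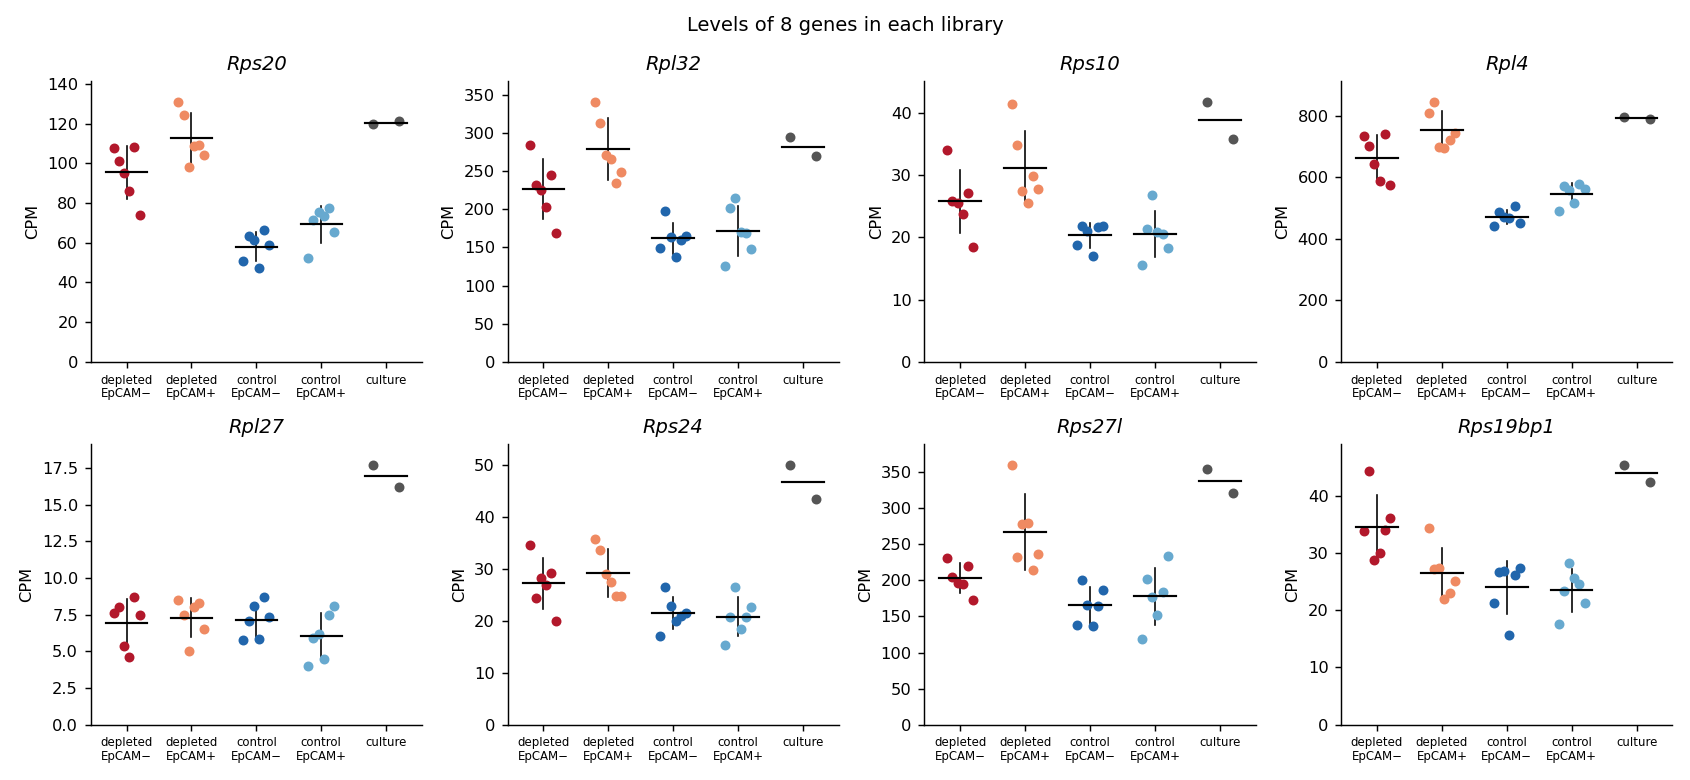
Level (CPM) of 8 genes in every library; each point is a library, horizontal bars are group means and vertical lines ± SD. Rps20 and Rpl4 are higher in every depleted library than in any control library of the same EpCAM fraction, while Rpl27 lies at 16.2 and 17.7 CPM in the cultures and between 3.97 and 8.70 CPM in all tumour libraries.

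Members with known roles outside bulk translation did not all pass. RPS19, RPS14 and other subunits are mutated or lost in human disorders of ribosome assembly such as Diamond-Blackfan anaemia and 5q- syndrome. Rps19 rose in both fractions: 81.7, 90.5 and 116 CPM in depleted EpCAM-positive cells, against 42.9, 64.6 and 74.0 CPM in control EpCAM-positive cells (0.59 ± 0.12, adjusted p = 0.000248), with 0.52 ± 0.12 in EpCAM-negative cells (adjusted p = 0.000689). Rps14 rose in EpCAM-positive cells (0.44 ± 0.12, adjusted p = 0.00568), and its EpCAM-negative change was 0.29 ± 0.12 (adjusted p = 0.0603). Rpsa, also known as a laminin receptor, had 11.6, 14.4 and 15.8 CPM in depleted EpCAM-positive cells, against 6.51, 11.1 and 11.3 CPM in control EpCAM-positive cells (0.51 ± 0.13, adjusted p = 0.00374), and its EpCAM-negative change was 0.24 ± 0.13 (adjusted p = 0.158). Rps27a, which is made as a fusion with ubiquitin, rose in EpCAM-positive cells (0.65 ± 0.24, adjusted p = 0.0348), and its EpCAM-negative change was 0.06 ± 0.24 (adjusted p = 0.858). Rps6, whose protein is the classical phosphorylation target of S6 kinase, did not pass in either fraction (0.46 ± 0.21 with adjusted p = 0.0811 in EpCAM-positive cells, 0.32 ± 0.21 with adjusted p = 0.225 in EpCAM-negative cells).

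Of the stalk proteins, which recruit elongation factors, Rplp0 rose in EpCAM-positive cells, with 262, 303 and 344 CPM in depleted tumours, against 161, 238 and 256 CPM in control tumours (0.41 ± 0.11, adjusted p = 0.00514). Rplp1 (0.24 ± 0.12, adjusted p = 0.128) and Rplp2 (0.28 ± 0.13, adjusted p = 0.101) did not pass there, and none of the stalk genes passed in EpCAM-negative cells. Rpl5 and Rpl11 bind 5S rRNA, and when assembly is disturbed they hold back Mdm2, the inhibitor of p53. Both were low, with group means of 1.22 to 1.94 CPM for Rpl5 in the tumours. Rpl11 rose in EpCAM-positive cells (0.71 ± 0.29, adjusted p = 0.0486) and Rpl5 did not pass (0.52 ± 0.30, adjusted p = 0.181). In EpCAM-negative cells neither passed, at 0.57 ± 0.28 for Rpl11 (adjusted p = 0.108) and 0.09 ± 0.31 for Rpl5 (adjusted p = 0.844).

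The count of 31 risen genes in EpCAM-negative cells depended on scaling, filter and single libraries. With library totals alone in place of TMM factors it was 56. With no filter on low counts it was 17, out of all members with a count, and 3222 of 29504 features (10.9%) then rose. It was 20 without control EpCAM-negative replicate 1 and 19 without depleted EpCAM-negative replicate 1. In the reported fit 21.9% of all features rose, and 19 and 20 of 85 genes lie near that share. The shares over all features in the fits without these libraries are not given here. Library totals alone moved the median of all features by 0.19 in this comparison, and 5501 features then rose and 2868 fell, against 3639 and 3862 with TMM.

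The sorted cells differed between treatments in more than ribosomal genes. The 9 fibroblast markers, which include collagens that mesenchymal tumour cells may also express, summed to 174 to 262 CPM in depleted EpCAM-negative libraries and 79.4 to 232 CPM in depleted EpCAM-positive libraries. They summed to 1859 to 6567 CPM in control EpCAM-negative libraries, where Thy1 (the CD90 gene of the sort) was at 0, and to 1568 to 3673 CPM in control EpCAM-positive libraries. The 6 tumour cell genes, which include the transgene and the sorted EpCAM, summed to 3881 to 5105 CPM in depleted EpCAM-negative libraries, against 1457 to 2057 CPM in control EpCAM-negative libraries. In EpCAM-positive cells they summed to 9071 to 9864 CPM in depleted tumours, against 3633 to 4616 CPM in control tumours. Of these 6 genes, 4 rose and 2 fell in depleted against control EpCAM-negative cells, and 5 rose and 0 fell in EpCAM-positive cells. The 11 macrophage markers, all with counts in the 4 tumour groups, summed to 144 to 344 CPM in depleted EpCAM-negative cells, against 54.8 to 75.6 CPM in control EpCAM-negative cells. In EpCAM-positive cells they overlapped, at 174 to 264 CPM in depleted tumours, against 121 to 279 CPM in control tumours. By gene, 7 of the 11 macrophage markers rose and 1 fell in EpCAM-positive cells, where 17.6% of all features rose. In EpCAM-negative cells 9 of the 11 rose and 0 fell, where 21.9% of all features rose. The sum of the 8 endothelial markers was also higher in depleted tumours. It was 9.08 to 39.5 CPM in depleted EpCAM-negative cells, against 1.96 to 5.34 CPM in control EpCAM-negative cells. In depleted EpCAM-positive cells it was 31.02 to 61.4 CPM, against 4.81 to 22.7 CPM in control EpCAM-positive cells. Of the 8 markers, 2 rose and 0 fell in EpCAM-negative cells, and 1 rose and 1 fell in EpCAM-positive cells. Markers of pericytes and smooth muscle summed to 50.3 to 96.6 CPM in depleted EpCAM-positive cells, against 172 to 399 CPM in control EpCAM-positive cells, and overlapped in EpCAM-negative cells. T and NK cell markers never summed above 3.62 CPM. The part of these markers in the change of the ribosomal genes was not tested.

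Between EpCAM fractions few of the genes passed the test. In control tumours, 0 of 85 rose and 1 fell in EpCAM-negative against EpCAM-positive cells, where 13.3% of all features rose and 14.5% fell. At an unadjusted p under 0.05, 4 were higher and 5 lower, and DESeq2 gave 0 and 2. The gene that fell was Rpl4 (-0.21 ± 0.07, adjusted p = 0.0207), and its libraries overlapped. In depleted tumours, 1 rose and 3 fell, where 14.2% of all features rose and 14.3% fell, and the median was -0.10 against 0.01 over all features. At an unadjusted p under 0.05, 2 were higher and 13 lower, and DESeq2 gave 1 and 6. Leaving out 1 library gave from 1 to 10 fallen genes in depleted tumours and from 1 to 4 in control tumours. With a term for the replicate number (a replicate block), more genes fell in both treatments, with the counts in the closing section. In that fit 15.6% of all features fell in control tumours and 15.9% in depleted tumours. Library totals alone gave 7 fallen genes in control tumours, with a shift of the median of all features of -0.14, and then 1325 features rose and 3630 fell, against 2220 and 2414 with TMM. Not one of the 85 genes separated the fractions without overlap in either treatment, where 6.31% of all features did so higher and 7.1% lower in control tumours, and 7.1% and 8.45% in depleted tumours.

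Among the genes that differed in depleted tumours, Rpl15 kept an adjusted p under 0.05 in all 19 alternative fits. The call was lost in 7 of these fits for Rps27l, in 11 for Rpl7 and in 10 for Rps19bp1. Rpl15, a large-subunit protein, had 16.7, 18.2 and 22.5 CPM in EpCAM-negative cells, against 21.6, 25.2 and 30.2 CPM in EpCAM-positive cells (-0.43 ± 0.13, adjusted p = 0.0127). Rps27l, a paralog of Rps27 and in human cells a p53 target, had 173, 200.5 and 231 CPM in EpCAM-negative cells, against 214, 258 and 361 CPM in EpCAM-positive cells (-0.39 ± 0.14, adjusted p = 0.0311). Rpl7 fell by 0.27 on the log2 scale, with an adjusted p of 0.04997, just under the threshold. The gene that rose was Rps19bp1, which encodes a nucleolar activator of SIRT1 and no subunit. It had 28.7, 33.9 and 44.3 CPM in EpCAM-negative cells, against 22.0, 26.1 and 34.3 CPM in EpCAM-positive cells (0.38 ± 0.14, adjusted p = 0.0387).

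Whether the fractions responded differently to treatment was tested as the difference between their changes. For the 85 genes, 0 were higher and 0 lower in edgeR's test, 0 at an unadjusted p under 0.05 and 0 in DESeq2, where 9.33% of all features were higher and 8.69% lower. The median difference, EpCAM-negative minus EpCAM-positive, was -0.10, against 0.05 over all features. It was 0.065 with library totals alone, which moved the median of all features by 0.17 and gave 2729 features higher and 903 lower, against 1553 and 1446 with TMM. The 44 and 31 calls in the fractions therefore do not show that the fractions differed.

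**Figure D4:**
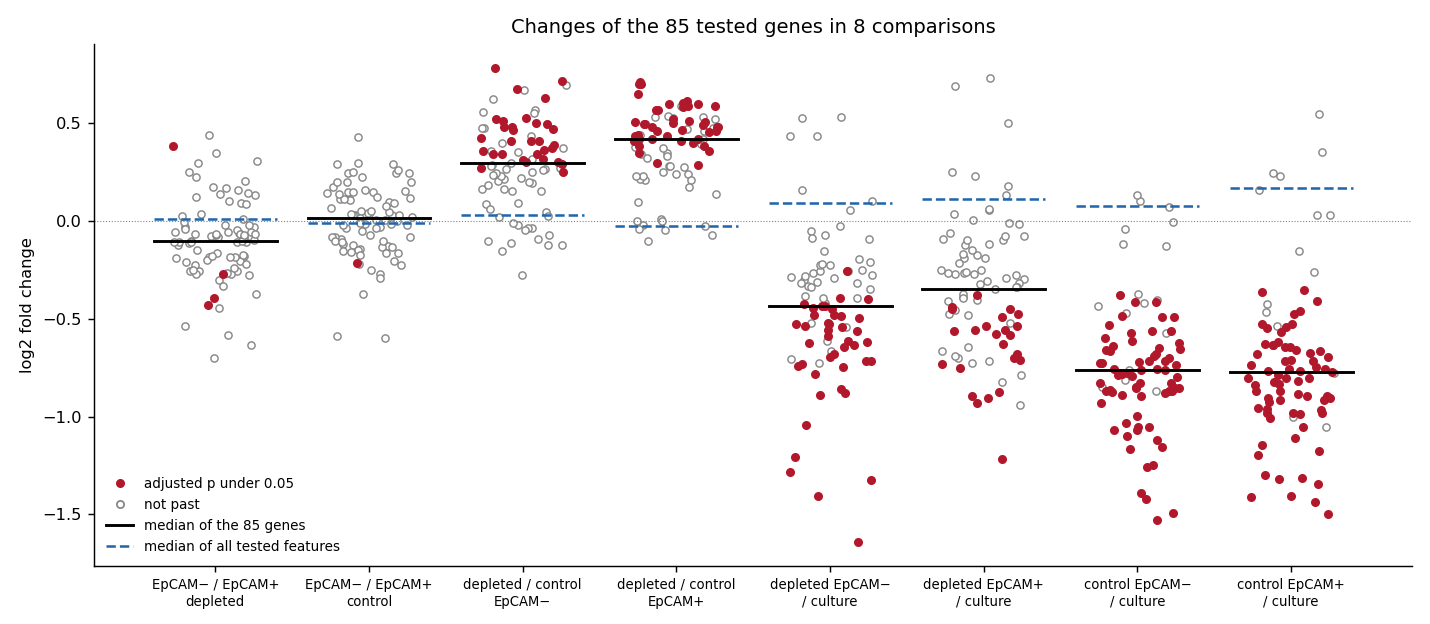
Log2 fold changes of the 85 tested genes in 8 comparisons; each point is a gene, filled points have an adjusted p under 0.05, black bars are their medians and dashed bars the medians of all tested features. The medians are 0.42 and 0.30 for depleted against control, near 0 between fractions, and from -0.77 to -0.35 against culture.

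Against cultured E-A14 cells, the ribosomal protein genes that passed the test were lower in every tumour group, and the 4 comparisons share the same 2 cultures. In depleted EpCAM-positive cells, 24 of 85 fell and 0 rose, where 18.6% of all features fell and 20.9% rose. In depleted EpCAM-negative cells, 42 fell and 0 rose, where 20.6% fell and 21.8% rose. In control EpCAM-positive cells, 70 fell and 0 rose, where 22.4% fell and 27.8% rose. In control EpCAM-negative cells, 68 fell and 0 rose, where 24.2% fell and 26.5% rose. DESeq2 and an unadjusted p under 0.05 also gave 0 risen genes, except for 1 at the unadjusted threshold in depleted EpCAM-negative cells. Medians were -0.35, -0.44, -0.77 and -0.76 in that order, while all features had medians of 0.11, 0.09, 0.17 and 0.08. Mean levels stood in the order culture, depleted, control for 70 of 85 genes in EpCAM-positive cells and for 65 of 85 in EpCAM-negative cells. The share of all features in that order was not counted, so these counts have no background beside them.

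By subunit, 15 of 46 large-subunit genes (32.6%) and 6 of 31 small-subunit genes (19.4%) fell in depleted EpCAM-positive cells. The small-subunit share lies close to the 18.6% of all features that fell there. In the same order, 27 (58.7%) and 12 (38.7%) fell in depleted EpCAM-negative cells. In control EpCAM-positive cells 39 (84.8%) and 27 (87.1%) fell, and in control EpCAM-negative cells 37 (80.4%) and 27 (87.1%). These counts lean on the first culture: without it, 6 fell in depleted EpCAM-positive, 11 in depleted EpCAM-negative and 45 in control EpCAM-negative cells, where 14.2%, 16.0% and 20.1% of all features then fell. The 6 and 11 of 85 lie below those shares. With 1 culture remaining, that library was assumed to vary like the other groups. Library totals alone gave 42 for depleted EpCAM-positive cells. They moved the median of all features by -0.13 there, by -0.17 in control EpCAM-positive cells and by -0.28 in control EpCAM-negative cells. The fibroblast markers summed to 18.0 to 19.5 CPM in the cultures, with Fap and Thy1 at 0, and the macrophage markers to 69.4 to 71.0 CPM, with C1qa, Mrc1 and Ptprc at 0. The endothelial markers summed to 0.769 and 0.793 CPM, with Cldn5, Emcn, Kdr, Tek and Vwf at 0, and those of pericytes and smooth muscle to 1.54 and 2.28 CPM, with Kcnj8, Myh11 and Rgs5 at 0. The fibroblast, endothelial and pericyte sums were higher in every tumour library, and the macrophage sum overlapped the cultures in control EpCAM-negative cells. The part of these markers in the differences from culture was not tested.

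Rpl27, a large-subunit protein that reached 10 CPM in the cultures but in no tumour library, fell below culture in all 4 tumour groups. It had 4.61, 7.53 and 8.70 CPM in depleted EpCAM-negative cells, 5.04, 7.75 and 8.47 CPM in depleted EpCAM-positive cells, 5.75, 7.20 and 8.70 CPM in control EpCAM-negative cells, and 3.97, 6.03 and 8.09 CPM in control EpCAM-positive cells, against 16.2 and 17.7 CPM in the cultures. Its fold changes against culture ran from -1.50 ± 0.24 (control EpCAM-positive, adjusted p = 1.03e-05) to -1.22 ± 0.24 (depleted EpCAM-positive, adjusted p = 0.000252). Depleted against control, it did not pass in EpCAM-positive (0.28, adjusted p = 0.245) or EpCAM-negative cells (-0.04, adjusted p = 0.898). Rps24, a small-subunit protein, had 17.1, 21.3 and 26.5 CPM in control EpCAM-negative cells and 15.3, 20.8 and 26.5 CPM in control EpCAM-positive cells, against 43.5 and 50.1 CPM in the cultures (-1.17 ± 0.18 for the EpCAM-positive cells, adjusted p = 4.78e-06). Rpl38, which in mouse embryos is known for its role in translating Hox mRNAs, had 13.3, 15.7 and 18.3 CPM in control EpCAM-negative cells, against 31.8 and 39.2 CPM in the cultures (-1.15, adjusted p = 1.52e-05). Rpl26, which in human cells can raise p53 translation, had 36.6, 43.9 and 57.4 CPM in control EpCAM-negative cells, against 91.7 and 109.7 CPM in the cultures (-1.17 ± 0.15, adjusted p = 5.05e-07). In each of these genes every control EpCAM-negative library lay below both cultures.

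Some members reached or passed the culture level. Rps19 in depleted EpCAM-positive cells (81.7 to 116 CPM) reached the cultures (mean 83.9 CPM), with a fold change of 0.18 ± 0.17 (adjusted p = 0.428). Rpl4 in depleted EpCAM-positive cells was at -0.08 against culture (adjusted p = 0.564), while in control EpCAM-negative cells it was at -0.75. Rpl10, in the large subunit near the peptidyl transferase centre, had 6.00, 7.04 and 10.6 CPM in depleted EpCAM-negative cells, against 6.76 and 6.83 CPM in the cultures (0.16 ± 0.25, adjusted p = 0.653). With 2 cultures, a p above the threshold does not show equal levels.

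Paralogs allow a comparison inside a library, because the share of the paralog in the counts of its pair does not depend on scaling between libraries. The coding starts below show how far members of 2 pairs can be told apart by short reads, with bases that differ from the first sequence of each set in capitals. They are the first 90 coding bases in GENCODE M21 (GRCm38).
Rps27: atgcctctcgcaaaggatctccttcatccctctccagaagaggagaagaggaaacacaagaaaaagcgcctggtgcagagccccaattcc
Rps27rt: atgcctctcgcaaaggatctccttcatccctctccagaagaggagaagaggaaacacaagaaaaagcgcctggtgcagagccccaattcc
Rps27l: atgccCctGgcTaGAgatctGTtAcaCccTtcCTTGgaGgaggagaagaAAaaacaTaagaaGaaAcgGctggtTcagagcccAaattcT
Rpl36a: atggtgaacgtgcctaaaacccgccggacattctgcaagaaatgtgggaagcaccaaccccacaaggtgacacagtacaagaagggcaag
Rpl36al: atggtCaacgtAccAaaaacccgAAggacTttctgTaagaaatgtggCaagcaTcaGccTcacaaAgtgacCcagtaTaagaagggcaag
The retrogene Rps27rt, on chromosome 9, has the same 252 coding bases as Rps27 on chromosome 3, so reads from the coding part of either cannot be assigned. Rps27l, also on chromosome 9, differs from Rps27 at 24 of these 90 bases and 60 of 252 (76.2% identity). Rpl36al, on chromosome 12, differs from Rpl36a, on the X chromosome, at 14 of 90 and 39 of 318 (87.7% identity).

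The Rps27 pair was one-sided in these counts. Rps27l took 98.9% of the pair's counts in depleted EpCAM-negative cells, 99.1% in depleted EpCAM-positive cells, 99.1% in control EpCAM-negative cells, 98.6% in control EpCAM-positive cells and 99.5% in culture. Rps27 shares 98.6% of its windows with other genes, against 22.4% for Rps27l, so the size of this ratio is uncertain. Rps27l rose in depleted against control EpCAM-positive cells, with 214, 258 and 361 CPM in depleted tumours, against 118, 180 and 234 CPM in control tumours (0.59 ± 0.14, adjusted p = 0.00115). Its EpCAM-negative change was 0.30 ± 0.14 (adjusted p = 0.0774). Rps27 itself, at 1.25 to 3.22 CPM in every tumour library, passed in none of the comparisons.

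Rpl7l1, a paralog of Rpl7 found in human cells on large subunits under assembly, held a smaller part of its pair in depleted tumours. It took 35.0 ± 4.33% of the pair's counts in depleted EpCAM-positive cells, against 43.6 ± 2.29% in control EpCAM-positive cells (SD, n = 6 each). The difference of -8.58 percentage points had p = 0.00433 in a two-sided exact permutation test, adjusted p = 0.0462 over 8 pairs and 4 comparisons (32 tests). In these exact permutation tests, the Rps4l differences that are given below as values ranked ahead of it. The adjusted value therefore leans on Rps4l, a gene with few counts. Over the 4 pairs with at least 200 paralog counts (16 exact permutation tests), which leave Rps4l out, the Rpl7l1 difference also passed. That alternative was chosen after seeing the data. With single libraries left out the difference stayed between -10.0 and -7.78 points. The adjusted p then went up to 0.0693 and the call was lost in 9 of 12 tests, in which fewer permutations make the smallest possible p larger. In EpCAM-negative cells the share was 43.0 ± 2.90% in depleted tumours, against 48.9 ± 2.75% in control tumours, which did not pass the exact test after adjustment (-5.85 points, adjusted p = 0.0577). EpCAM-negative minus EpCAM-positive, the share differed by 8.04 points in depleted and by 5.31 points in control tumours, and neither passed the exact test (adjusted p = 0.0577 each). The parent moved more than the paralog: Rpl7 rose in depleted against control EpCAM-positive cells (0.42, adjusted p = 0.00184), and Rpl7l1 did not pass there (-0.10, adjusted p = 0.341) or in EpCAM-negative cells (-0.05, adjusted p = 0.681). Rpl7l1 was below culture in all 4 tumour groups (-0.63 to -0.38).

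Rpl22l1 is a paralog of Rpl22, which holds down the level of Rpl22l1 in mice. Rpl22l1 took 28.6 ± 5.04% of its pair in depleted EpCAM-negative cells, 21.8 ± 2.07% in depleted EpCAM-positive cells, 27.0 ± 3.70% in control EpCAM-negative cells, 25.7 ± 5.16% in control EpCAM-positive cells and a mean of 18.6% in culture (n = 6 each and 2 cultures). The 6.79 points between the depleted fractions did not pass the exact test (adjusted p = 0.0693). By gene, Rpl22l1 rose in depleted against control EpCAM-negative cells (0.42 ± 0.16, adjusted p = 0.0333), and it was the tested paralog that rose in that fraction. The Rpl22l1 call was lost in 9 of 19 alternative fits. Rpl22 rose in both fractions (0.29 with adjusted p = 0.0304 in EpCAM-positive cells, 0.30 with adjusted p = 0.0204 in EpCAM-negative cells). Its calls were lost in 5 and 3 of 19 alternative fits, in that order. Rpl22l1 did not pass against culture in any tumour group, where its fold changes ran from 0.10 to 0.53.

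Rpl36al held 88.0 ± 2.55% of its pair in depleted EpCAM-positive cells, against 91.1 ± 0.969% in control EpCAM-positive cells, and 89.2 ± 0.791% in depleted EpCAM-negative cells, against 89.9 ± 1.86% in control EpCAM-negative cells. The EpCAM-positive difference of -3.06 points did not pass the exact test (adjusted p = 0.0693). Rpl36a and Rpl36al both fell against culture in all 4 tumour groups, from -1.30 to -0.87 for Rpl36a and from -0.71 to -0.41 for Rpl36al. Neither passed between treatments.

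The remaining paralogs had few counts. Rpl3l, a muscle paralog of Rpl3, had 104 counts in 26 libraries, and its group means were 1.57% to 1.99% of its pair in the tumours. Rpl3 itself did not pass between treatments (-0.02 in EpCAM-positive cells, 0.27 in EpCAM-negative cells). Rpl10l and Rpl39l, known from testis, had 8 and 4 counts. Rpl10 rose in EpCAM-negative cells (0.63 ± 0.18, adjusted p = 0.00478), Rpl39 in EpCAM-positive cells (0.35 ± 0.13, adjusted p = 0.039) and Rps4x in both (0.57 ± 0.12 with adjusted p = 0.000329 in EpCAM-positive cells, 0.32 ± 0.12 with adjusted p = 0.0291 in EpCAM-negative cells). Of 19 alternative fits, 7 lost the Rpl39 call and 4 the EpCAM-negative call of Rps4x. The Rpl10 call and the EpCAM-positive call of Rps4x were lost in 0. Rps4l had 29 counts in all, and 25 of them lay in the 6 control EpCAM-positive libraries, as 2, 3, 1, 2, 16 and 1 counts. Control EpCAM-negative and depleted EpCAM-positive libraries had 0. Its share of the pair differed by -0.398 points both for EpCAM-negative minus EpCAM-positive cells in control tumours and for depleted minus control EpCAM-positive cells. With so few counts this is given as a value only. Among retrogenes, Rpl37rt had 6093 counts, Rps27rt 5480 and Rps3a3 142, and none passed between treatments. Rpl6l had 17, Rps3a2 15 and Rps12l1 0.

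**Figure D5:**
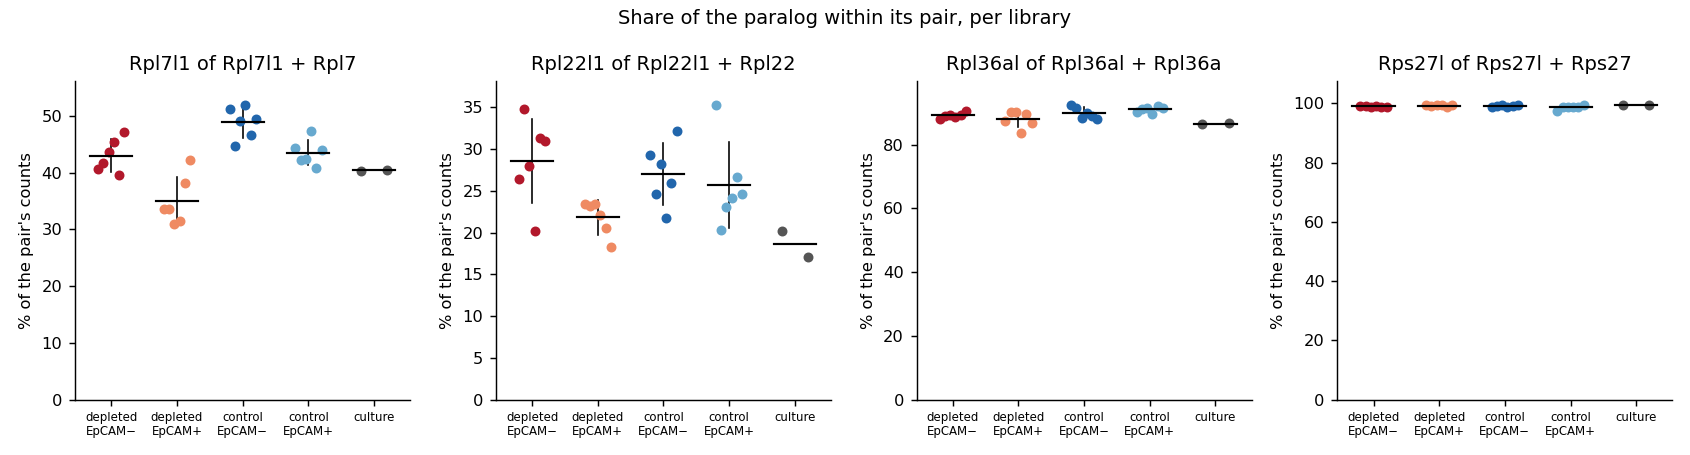
Percent of a pair's counts that belong to the paralog, in each library, for the 4 pairs with at least 200 counts of the paralog. Points are libraries, horizontal bars group means and vertical lines ± SD; Rpl7l1 is lowest in depleted EpCAM-positive cells (35.0%, against 43.6% in control EpCAM-positive cells), and Rps27l is near 99% in all groups.

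Other genes of protein synthesis, listed by function, are given for comparison, as counts without a test of the list. Over all features, as above, 17.6% rose and 22.4% fell in depleted against control EpCAM-positive cells, and 21.9% rose and 23.2% fell in EpCAM-negative cells. Among 23 other translation genes with a TOP tract, 17 rose and 0 fell in depleted against control EpCAM-positive cells (median 0.38), and 15 rose and 0 fell in EpCAM-negative cells (median 0.34). Pabpc1, the cytoplasmic poly(A)-binding protein, had the smallest p, with a mean of 569 ± 20.7 CPM in depleted EpCAM-positive cells, against 259.7 ± 20.5 CPM in control EpCAM-positive cells (1.13 ± 0.08, adjusted p = 3.3e-11). Rack1, a small-subunit protein outside the naming rule, averaged 412 ± 50.7 CPM in depleted EpCAM-positive cells, against 273 ± 35.2 CPM in control EpCAM-positive cells (0.59 ± 0.11, adjusted p = 8.1e-05). Eef1a1, the main elongation factor, averaged 979 ± 71.4 CPM in depleted EpCAM-positive cells, against 729 ± 50.6 CPM in control EpCAM-positive cells (0.43 ± 0.08, adjusted p = 0.00021). Against culture, 8 of the 23 fell and 4 rose in depleted EpCAM-positive cells, and 18 fell and 1 rose in control EpCAM-positive cells.

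Of 44 ribosome assembly factors, 14 rose and 3 fell in depleted against control EpCAM-positive cells (median 0.20), and 28 rose and 1 fell in EpCAM-negative cells (median 0.32). Mybbp1a, a nucleolar regulator of rRNA synthesis, averaged 254 ± 41.8 CPM in depleted EpCAM-positive cells, against 154 ± 13.4 CPM in control EpCAM-positive cells (0.72 ± 0.09, adjusted p = 7.9e-07). The assembly factors also differed between fractions in depleted tumours, where 17 rose (38.6%) and 1 fell in EpCAM-negative against EpCAM-positive cells (median 0.24), against 14.2% and 14.3% of all features. The ribosomal protein genes themselves had a median of -0.10 there. Against culture, 41 of 44 assembly factors fell in depleted EpCAM-positive cells, with a median of -1.05. Nolc1, which carries snoRNPs in the nucleolus, was among them in every tumour group (-1.69 ± 0.10 in control EpCAM-positive cells, adjusted p = 1.1e-12). Of 25 initiation factors, 16 rose and 2 fell in EpCAM-positive cells and 13 rose and 2 fell in EpCAM-negative cells, with Eif3c, a core subunit of eIF3, at 0.51 ± 0.06 in EpCAM-positive cells (adjusted p = 4.3e-08). Of 14 RNA polymerase I genes, 3 rose (21.4%) and 1 fell in EpCAM-positive cells and 4 rose (28.6%) and 1 fell in EpCAM-negative cells. These shares of risen genes lie close to those over all features.

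Of 79 tested mitochondrial ribosomal protein genes, 14 rose and 14 fell in depleted against control EpCAM-positive cells (17.7% each, median -0.00), and 11 rose (13.9%) and 23 fell (29.1%) in EpCAM-negative cells (median -0.04). The share that rose in EpCAM-positive cells was close to that of all features, 17.6%. Mrpl4 had the smallest p, at -0.81 ± 0.11 in EpCAM-positive cells (adjusted p = 1.5e-06). Against culture, 62 of the 79 fell and 0 rose in depleted EpCAM-positive cells.

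Regulators upstream of the ribosomal genes are given whether or not they passed. Myc, which drives transcription of ribosomal genes, averaged 192 ± 43.0 CPM in depleted EpCAM-negative cells, against 105 ± 11.2 CPM in control EpCAM-negative cells (0.87 ± 0.13, adjusted p = 6.3e-06). In EpCAM-positive cells it averaged 171 ± 31.5 CPM in depleted tumours, against 124 ± 18.1 CPM in control tumours (0.46 ± 0.13, adjusted p = 0.0074), and the cultures had 239.8 and 262 CPM. Larp1 rose in both fractions (0.27, adjusted p = 0.0082 in EpCAM-positive cells; 0.42, adjusted p = 0.00014 in EpCAM-negative cells). Eif4ebp1, the translation repressor that mTORC1 phosphorylates, rose by a log2 of 2.02 ± 0.16 in EpCAM-negative cells (adjusted p = 1.4e-10) and of 0.65 ± 0.16 in EpCAM-positive cells (adjusted p = 0.0017). Rps6kb1, the S6 kinase gene, rose in EpCAM-negative cells (0.21, adjusted p = 0.02) and did not pass in EpCAM-positive cells (0.08, adjusted p = 0.4). Of all 20 genes of mTORC1 and of the control of these mRNAs, 5 rose and 5 fell in EpCAM-positive cells (25% each), and 8 rose (40%) and 4 fell (20%) in EpCAM-negative cells. Of 8 tested snoRNA host RNAs, 3 rose in the EpCAM-positive fraction and 6 in the EpCAM-negative fraction, with none fallen in either. Of 13 p53 targets, 8 rose and 1 fell in EpCAM-positive cells and 10 rose and 2 fell in EpCAM-negative cells. Mdm2, a p53 target and the partner of Rpl5 and Rpl11, averaged 438 ± 46.9 CPM in depleted EpCAM-positive cells, against 215 ± 36.9 CPM in control EpCAM-positive cells (1.03 ± 0.12, adjusted p = 8.5e-08). Cdkn1a, the p21 gene, rose in EpCAM-negative cells (0.70 ± 0.13, adjusted p = 8.0e-05) and did not pass in EpCAM-positive cells (0.14, adjusted p = 0.42). The markers that moved with treatment, given above, moved with these lists as well, and their part was not tested.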

How the data were processed

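Bulk RNA was sequenced from 24 sorted tumour samples and 2 cultures as single reads of 50 bases, from amplified low-input cDNA that marks neither strand nor molecules, per the labels' protocols. The authors deposited raw counts per gene. Reads were aligned with STAR (release not given in the sources used here), to build mm9, per the submitters' processing notes, which also name DESeq2 1.22.2. The counting program, annotation and rule for multi-mapped reads were likewise not stated. The authors' deposited log2-like table was not used. Labels do not say that libraries of a group come from separate animals or cultures, so p-values measure the spread between these samples. Symbols were matched by identifier for 47224 features. Counts were scaled by TMM and fitted in edgeR 4.0.16 (R 4.3.3) with 1 coefficient for each of 5 groups over all 26 libraries. Levels are CPM with no prior count. SE was derived from the fold change and the F statistic. The fit was tested on simulated data. Named genes were, per comparison, up to 3 called members with the largest fold change in each direction and at least 10 CPM, plus paralogs, parents, stalk, 5S and other members with known roles. Genes named outside that rule, such as Rps18, Rpl8 and Rps3, were chosen after their values were seen. Alternatives were DESeq2 1.42.0, other scalings, no filter, fewer groups, a replicate block and leaving out libraries. Members and lists were chosen with earlier results of these data known. The cultures have 2 libraries, which limits precision. Replicate numbers were checked for pairing by the correlation of deviations between same-numbered libraries.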

Additional observations from a re-analysis of the deposited data

Results flagged for a closer look

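Each of these stood out by a fixed rule and is given as a value. In control EpCAM-negative cells, Rpl10 had 7.31 CPM in replicate 3, against 3.99 to 5.04 CPM in the other 5 libraries. This was 1 of 152 sets of libraries examined for a sample far from the rest, and chance alone marks about 1 in 20. The change of Eif4ebp1 between depleted and control tumours differed between fractions, by 1.37 on the log2 scale (EpCAM-negative minus EpCAM-positive, adjusted p = 7.8e-05 in edgeR's test of the difference): it averaged 147 ± 8.91 CPM in depleted and 36.1 ± 8.23 CPM in control EpCAM-negative cells, and 84.4 ± 11.4 CPM in depleted and 53.8 ± 16.0 CPM in control EpCAM-positive cells. The change of Cdkn1a differed by 0.56 (adjusted p = 0.033).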

How the results depend on the processing

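None of 96 called values of single genes changed direction, and 57 kept an adjusted p under 0.05 in all alternatives while 39 lost it in at least 1. The small medians between fractions did change sign: that of control fractions, 0.01, ran from -0.030 to 0.062 when 1 library was left out and was -0.12 with library totals alone. Counts are of the 85 genes, except those with no filter, which are of all members with a count. For control EpCAM-negative minus EpCAM-positive cells, fallen genes numbered 1 in the reported fit, 2 with DESeq2, its size factors, TMM without the members, no filter, or only the groups compared, and 7 with library totals alone. For depleted EpCAM-negative minus EpCAM-positive cells, 1 rose and 3 fell. Library totals alone gave 2 and 1, no filter 0 risen, and DESeq2 6 fallen. Among genes with under 50% of windows shared, a split chosen after seeing the data, the share that fell in control tumours was 2.94% (1.18% over all) and the share that rose in depleted tumours 2.94%. For depleted minus control EpCAM-negative cells, the 31 risen genes became 56 with library totals (median 0.48) and 17 with no filter. No filter gave 1 fallen in EpCAM-positive cells and 1 higher in the difference between fractions, whose median of -0.10 turned to 0.065 with library totals. For depleted EpCAM-positive cells minus culture, 24 fallen became 42 with library totals, under which medians against culture were -0.94 for control EpCAM-positive and -1.07 for control EpCAM-negative cells. Left out of the library total, the 20 highest other features raised the members' share in control EpCAM-negative cells to 0.435%. Leaving out 1 library gave these ranges: control fractions 0 to 1 risen and 1 to 4 fallen, depleted fractions 0 to 2 and 1 to 10, depleted minus control 34 to 46 risen in EpCAM-positive cells and 19 to 40 risen, 0 to 1 fallen in EpCAM-negative cells, and fallen against culture 6 to 28 (depleted EpCAM-positive), 11 to 50 with 0 to 1 risen (depleted EpCAM-negative), 49 to 72 (control EpCAM-positive) and 45 to 71 (control EpCAM-negative). Paralog shares ranged over 4.68 to 6.13 points (Rpl7l1, control fractions), 7.22 to 9.47 (Rpl7l1, depleted fractions), -10.0 to -7.78 (Rpl7l1, treatments, EpCAM-positive), 5.55 to 8.47 (Rpl22l1, depleted fractions), -3.52 to -2.21 (Rpl36al, treatments, EpCAM-positive), 0.217 to 0.625 (Rps27l, control fractions) and -0.457 to -0.189 (Rps4l). Adjusted over only the 4 pairs with at least 200 paralog counts (16 tests), an alternative chosen after seeing the data, Rpl22l1 in depleted fractions (6.79 points), Rpl36al between treatments (-3.06) and the other Rpl7l1 differences (5.31, 8.04 and -5.85) also passed. Same-numbered libraries correlated at 0.050 to 0.172 in control and 0.017 to 0.047 in depleted fractions. In control tumours each EpCAM-negative library correlated best with the EpCAM-positive library of its own number, a hint from the data and not from the design. Same-numbered libraries are taken as sharing only a number, and the exact tests of paralog shares did not pair them. With a replicate block, 5 genes fell in control fractions and 12 in depleted fractions, where 15.6% and 15.9% of all features fell. The causes of these shifts were not tested. Low counts limit genes such as Rpl5, Rps27 and Rps4l.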
